A study of Mus musculus with 27 samples.

Results

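A set of 10 genes of hepatic phosphatidylcholine synthesis and choline use were followed in the liver RNA-Seq of HGFAC-KO mice and littermate controls. The set was built around *Chka*, which encodes choline kinase alpha and had been picked from the genotype comparison on the high-fat/high-sucrose (HF/HS) diet. The other 9 were added as its pathway neighbors, and together they are 10 of the 23191 gene symbols in the count table. Because *Chka* was chosen for its difference between genotypes on HF/HS, the members' values in that comparison are described with no p-value, and so are the values of *Chka* in the comparisons that share those mice.

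The mice were male C57BL/6J, 8 weeks old when the diets began, and liver was collected after 4 weeks on the diet. Controls on chow, controls on HF/HS and HGFAC-KO mice on HF/HS numbered 7 each, and HGFAC-KO mice on chow numbered 6. HGFAC-KO mice carry a whole-body CRISPR/Cas9 deletion in the first exons of *Hgfac*, the gene of a liver-secreted serine protease that activates hepatocyte growth factor, so its loss is not limited to hepatocytes. Each library is one liver, and total counts, rows with no gene name included, ran from 36056177 to 57298657 per library. *Hgfac* averaged 201.2 ± 12.8 CPM (read counts scaled to library size, SD, n = 7) in chow controls and 75.2 ± 8.27 (SD, n = 6) in chow HGFAC-KO mice. On HF/HS it averaged 271.3 ± 15.5 and 91.8 ± 7.94 CPM (SD, n = 7 each), and the genotypes did not overlap on either diet.

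Phosphatidylcholine is the main phospholipid of membranes and of the lipoprotein surface, and the liver makes it by 2 routes. In the CDP-choline route, choline is phosphorylated by choline kinase, activated to CDP-choline and joined to diacylglycerol. A parallel CDP-ethanolamine route makes phosphatidylethanolamine, which PEMT, an enzyme largely particular to liver, methylates to phosphatidylcholine with S-adenosylmethionine. Choline is otherwise oxidized to betaine, whose methyl group BHMT passes to homocysteine to remake methionine. Choline supply and these routes are known to bear on hepatic triglyceride export.

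On GRCm38 (GENCODE M21) *Chka* lies on chromosome 19 from 3851773 to 3894369 and *Chkb* on chromosome 15 from 89426360 to 89429908. *Pcyt1a* lies on chromosome 16 from 32430921 to 32475070, *Chpt1* on chromosome 10 from 88452745 to 88504073 and *Cept1* on chromosome 3 from 106502260 to 106547802. *Etnk2* lies on chromosome 1 from 133363572 to 133380336, *Pcyt2* on chromosome 11 from 120610087 to 120617936 and *Pemt* on chromosome 11 from 59970614 to 60046489. *Chdh* lies on chromosome 14 from 30009023 to 30040527 and *Bhmt* on chromosome 13 from 93616675 to 93637961. RefSeq windows (GRCm38.p6) were matched for 9 of the 10. The 250 bases before the gene start are shown for the kinases that open the choline and ethanolamine branches, since *Chka* carried the genotype difference and *Chkb* and *Etnk2* encode its nearest counterparts. They lie at chr19:3851523-3851772 (plus strand), chr15:89429928-89430177 (minus strand) and chr1:133363322-133363571 (plus strand), and capitals mark GC boxes (GGGCGG) and CCAAT boxes, each found on either strand.

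Chka: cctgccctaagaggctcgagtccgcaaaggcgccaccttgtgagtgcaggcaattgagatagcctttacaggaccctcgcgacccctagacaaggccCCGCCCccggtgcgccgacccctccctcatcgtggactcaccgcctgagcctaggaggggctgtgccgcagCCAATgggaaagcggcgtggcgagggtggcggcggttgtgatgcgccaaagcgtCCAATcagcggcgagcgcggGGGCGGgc
Chkb: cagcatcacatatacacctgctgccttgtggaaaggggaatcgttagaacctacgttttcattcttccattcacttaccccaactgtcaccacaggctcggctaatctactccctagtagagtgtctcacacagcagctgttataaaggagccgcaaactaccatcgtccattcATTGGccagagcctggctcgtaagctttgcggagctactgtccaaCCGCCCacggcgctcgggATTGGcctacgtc
Etnk2: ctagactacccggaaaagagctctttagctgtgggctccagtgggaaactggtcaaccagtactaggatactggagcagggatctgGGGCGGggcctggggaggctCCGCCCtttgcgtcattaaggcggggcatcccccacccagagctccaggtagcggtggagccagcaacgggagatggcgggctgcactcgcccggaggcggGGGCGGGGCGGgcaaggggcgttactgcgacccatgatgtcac

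The *Chka* window held 2 GC boxes and 2 CCAAT boxes, *Chkb* held 1 GC box and 2 CCAAT boxes, and *Etnk2* held 4 GC boxes, a pair of which overlap. Over all 32851 windows of the same length, 32.7% held a GC box and 33.8% a CCAAT box. The palindromic E-box CACGTG (6.0% of windows), the half-site AGGTCA (14%) and TGANTCA (6.7%), searched on both strands, were not found in the *Chka* window. A match or its lack is a description of these letters and not of binding.

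Per kilobase of exon, the members covered a wide range of mean levels over the 27 mice. *Bhmt* was highest at 371.5 CPM per kb (range over mice 193.1 to 578.0), followed by *Pcyt2* at 85.5 (71.8 to 99.5) and *Pemt* at 66.4 (52.2 to 88.4). *Etnk2* at 45.7 and *Chdh* at 42.3 CPM per kb overlapped across mice. *Chpt1* at 16.4 CPM per kb overlapped both *Cept1* at 18.8 (15.07 to 21.2) and *Pcyt1a* at 13.1 (10.1 to 14.98), which did not overlap each other. *Chka* was near the bottom at 6.05 CPM per kb (4.30 to 9.83), although its 14 annotated transcripts give it 12024 exon bases, the most of any member, over which its reads are spread. The levels below are CPM, with SD after ± and 7 mice a group (6 for chow HGFAC-KO mice), which compare mice within 1 gene and not genes with each other.

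*Chka*, the first step of the CDP-choline route, was higher in HGFAC-KO mice than in controls on HF/HS and was variable on chow. On HF/HS the controls had 60.6, 59.8, 55.9, 54.7, 59.4, 51.7 and 54.6 CPM, and the HGFAC-KO mice had 79.1, 75.3, 80.9, 89.9, 84.4, 80.7 and 77.1 CPM. The lowest HGFAC-KO mouse stood 14.8 CPM above the highest control. Means were 56.7 ± 3.31 and 81.1 ± 4.85 CPM (SD, n = 7 each), a log2 fold change of 0.52 (SE 0.051). *Chka* was the 1 member of 9 fitted that passed the adjusted threshold of 0.05 in this comparison, which was the basis of its choice, where 0.0148% of all genes passed (0.00738% in each direction), 9.64% had an unadjusted p under 0.05 and 0.0861% had groups that did not overlap. In a fit of all 27 mice the call was lost and 0 members passed.

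**Figure D1:**
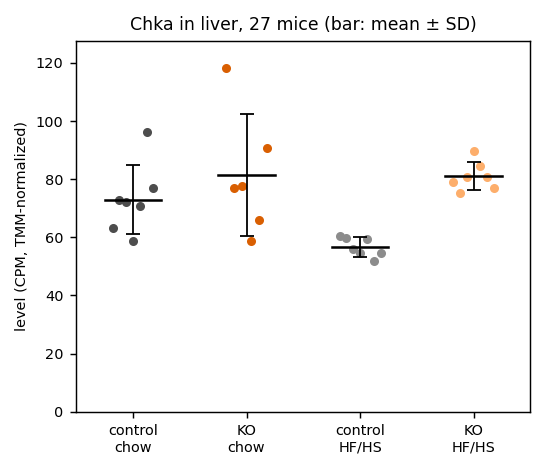
*Chka* level in CPM (y axis, from 0) for each of the 27 livers in the 4 groups on the x axis; points are mice, horizontal bars means and whiskers SD. The HF/HS HGFAC-KO mice (75.3 to 89.9 CPM) sit above all HF/HS controls (51.7 to 60.6 CPM), while both chow groups spread more widely and overlap.

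On chow the controls had 63.3, 72.9, 72.0, 58.7, 70.9, 96.1 and 76.8 CPM of *Chka*, and the HGFAC-KO mice had 118.2, 76.9, 77.7, 58.8, 66.1 and 90.6 CPM. The groups overlapped over most of their range, and a single HGFAC-KO mouse, replicate 1, was the highest of all 27. The means, 73.0 ± 11.9 (SD, n = 7) and 81.4 ± 21.1 CPM (SD, n = 6), differed by a log2 fold change of 0.16 (SE 0.148; edgeR quasi-likelihood test, p adjusted over all genes tested by Benjamini-Hochberg = 0.845; exact permutation p = 0.428, two-sided). Without HGFAC-KO replicate 1 the log2 fold change was 0.02.

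The group with the lowest mean was the HF/HS controls, and both HF/HS groups were tighter than the chow groups. From chow to HF/HS, *Chka* differed by -0.37 on the log2 scale in controls (SE 0.084) and by -0.01 in HGFAC-KO mice (SE 0.127). Of the 7 chow controls, 1 was below the highest HF/HS control. The SD was 5.85% and 5.98% of the mean in the HF/HS groups against 16.3% and 25.9% in the chow groups. The difference of the genotype differences, HF/HS minus chow, was 0.36 (SE 0.156). These values share the HF/HS mice by which *Chka* was picked and are given without a test.

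*Chkb*, the other choline kinase gene, had 1 to 14 counts per library (0.03 to 0.34 CPM) and did not pass the low-count filter in any comparison of 2 groups. Its annotated exons share 1552 of 3061 bases (50.7%) with the read-through gene *Gm44502* on the same strand, and how reads in such stretches were assigned is not given in the sources used here. The level of *Chkb* is therefore uncertain, and the ratio of *Chka* to *Chkb* counts, on the log2 scale 8.89 ± 0.88 (SD, n = 7) in chow controls and 8.74 ± 0.43 (SD, n = 6) in chow HGFAC-KO mice (exact permutation p = 0.727, two-sided), rests on those few counts.

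Apart from *Chka*, the CDP-choline route held *Pcyt1a*, *Chpt1* and *Cept1*, and none passed the adjusted threshold by genotype on chow. Over the set, 0 of 9 tested members passed there (edgeR; 0.00737% of all genes passed). *Chpt1* alone of them had an unadjusted p under 0.05, as did 5.98% of all genes, and DESeq2 (with no adjusted p for *Cept1*) and limma voom also called 0. No member had groups that did not overlap, against 0.136% of all genes. Expression of *Chpt1*, whose cholinephosphotransferase completes the route, was 148.3, 142.2, 134.0, 155.5, 162.3, 151.1 and 167.0 CPM in chow controls and 116.4, 141.3, 150.8, 116.2, 142.8 and 116.9 CPM in chow HGFAC-KO mice. Of these, 3 of 6 HGFAC-KO mice were below every control and 4 of 7 controls above every HGFAC-KO mouse. The log2 fold change was -0.21 (SE 0.074), which did not pass over all genes (adjusted p = 0.801, edgeR; exact permutation p = 0.0256, unadjusted and two-sided). The permutation p was not under 0.05 without control replicate 5 or 7.

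On HF/HS, where no p-value is given for the members, *Chpt1* was also lower in HGFAC-KO mice. It was 143.1 ± 17.4 CPM in controls (range 115.2 to 166.5) and 119.0 ± 6.87 CPM in HGFAC-KO mice (range 107.8 to 130.2, SD, n = 7 each), a log2 fold change of -0.27 (SE 0.072). Here 5 of 7 controls were above every HGFAC-KO mouse. About 7.9% of the exon bases of *Chpt1* overlap *Sycp3* on the opposite strand, and the strand setting of the counting is not given in the sources used here.

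*Pcyt1a*, whose product makes CDP-choline at the rate-limiting step, had nearly the same level in every control on chow, 99.4 to 105.9 CPM, and 91.2 to 101.7 CPM in controls on HF/HS. The diet difference in controls was small, with a log2 fold change of -0.12 (SE 0.038), and fell short of the threshold over all genes (adjusted p = 0.0576, edgeR; exact permutation p = 0.00233, unadjusted and two-sided). In HGFAC-KO mice it averaged 98.7 ± 12.5 CPM on chow (SD, n = 6) and 92.2 ± 5.31 CPM on HF/HS (SD, n = 7), with a log2 fold change of -0.10 (adjusted p = 0.472, edgeR). Exons of *Slc51a* on the opposite strand cover 7.6% of its exon bases. By genotype its log2 fold change was -0.06 on chow (adjusted p = 0.865, edgeR) and -0.05 on HF/HS.

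*Cept1*, which encodes a transferase that accepts both CDP-choline and CDP-ethanolamine, averaged 62.1 ± 3.03 CPM in chow controls and 54.4 ± 6.21 CPM in HF/HS controls (SD, n = 7 each). Its log2 fold change of -0.19 with diet (SE 0.065) did not pass either (adjusted p = 0.0723, edgeR; exact permutation p = 0.0146, unadjusted). In HGFAC-KO mice the diet value was -0.10 (adjusted p = 0.339, edgeR), and the genotype values were -0.03 on chow (adjusted p = 0.930, edgeR) and 0.07 on HF/HS. Exons of *Dennd2d* on the opposite strand cover 24.7% of its exon bases.

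In the CDP-ethanolamine branch, *Etnk2* encodes an ethanolamine kinase abundant in liver and *Pcyt2* the enzyme that makes CDP-ethanolamine and sets the pace of the branch. Both were lower on HF/HS than on chow in HGFAC-KO mice by the single-gene test and not after adjustment over all genes. *Pcyt2* ranged from 361.3 to 432.4 CPM on chow and from 315.3 to 378.7 CPM on HF/HS, with overlapping groups and a log2 fold change of -0.15 (SE 0.059; adjusted p = 0.144, edgeR; exact permutation p = 0.00932, unadjusted). *Etnk2* ranged from 185.6 to 254.8 and from 137.6 to 216.1 CPM, a log2 fold change of -0.26 (SE 0.102; adjusted p = 0.147, edgeR; exact permutation p = 0.0373, unadjusted). The permutation p of *Etnk2* was no longer under 0.05 without HGFAC-KO chow replicate 2, 3 or 4 or HGFAC-KO HF/HS replicate 6. In controls the diet values were -0.05 for *Pcyt2* (adjusted p = 0.680, edgeR) and -0.15 for *Etnk2* (adjusted p = 0.371, edgeR). Genotype differences were 0.05 and -0.04 on chow (adjusted p = 0.862 and 0.947, edgeR) and -0.06 and -0.16 on HF/HS.

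*Pemt* averaged 146.9 ± 15.3 CPM in chow controls (SD, n = 7) and 151.3 ± 22.7 CPM in chow HGFAC-KO mice (SD, n = 6). On HF/HS the genotypes were at 131.3 ± 16.1 and 130.6 ± 11.4 CPM (SD, n = 7 each). The genotype log2 fold changes were 0.05 on chow (adjusted p = 0.926, edgeR) and -0.01 on HF/HS. With diet *Pemt* had log2 fold changes of -0.16 in controls (SE 0.082, adjusted p = 0.225, edgeR) and -0.21 in HGFAC-KO mice (SE 0.090, adjusted p = 0.170, edgeR).

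In choline oxidation, *Chdh* encodes the mitochondrial choline dehydrogenase and *Bhmt* the betaine-homocysteine methyltransferase. *Chdh* was 268.8 ± 24.0 CPM in chow controls and 242.2 ± 29.0 CPM in chow HGFAC-KO mice (log2 fold change -0.15, SE 0.077; adjusted p = 0.810, edgeR), and 287.2 ± 30.0 and 251.3 ± 18.4 CPM on HF/HS (log2 fold change -0.19, SE 0.069, no p-value given). Exons of *Cacna1d* on the opposite strand cover 9.5% of its exon bases. Its diet values were 0.09 in controls and 0.05 in HGFAC-KO mice (adjusted p = 0.462 and 0.724, edgeR).

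*Bhmt* was the most variable member beside *Chkb* once the chow controls were set aside. These ran from 1787 to 2171 CPM, whereas chow HGFAC-KO mice ran from 1112 to 3166, HF/HS controls from 1628 to 3328 and HF/HS HGFAC-KO mice from 1162 to 2861 CPM. The SD was 7.32% of the mean in chow controls and 26.5% to 34.6% in the other groups. Neither the diet value in controls, 0.30 (SE 0.136, adjusted p = 0.185, edgeR), nor the genotype value on chow, 0.18 (SE 0.182, adjusted p = 0.853, edgeR), passed. The genotype value on HF/HS was -0.39 (SE 0.209). Leaving out 1 mouse moved the chow value between 0.065 (without HGFAC-KO replicate 5) and 0.324 (without HGFAC-KO replicate 1). In HGFAC-KO mice the diet value was -0.27 (SE 0.25, adjusted p = 0.557, edgeR), opposite in sign to that of controls. *Bhmt* also had the largest interaction value among the members, -0.58 (SE 0.294, adjusted p = 0.984, edgeR).

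**Figure D2:**
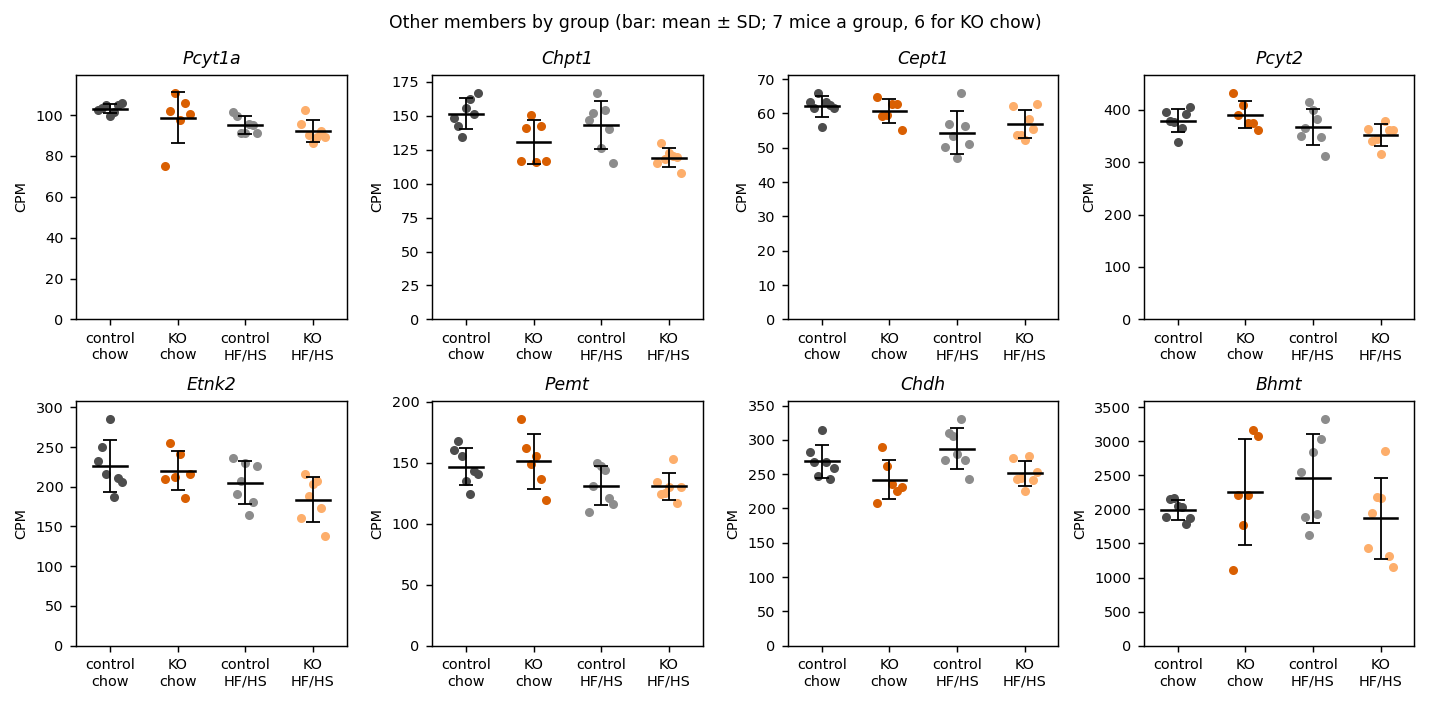
Levels in CPM (y axes, from 0) of the 8 other members that passed the low-count filter, per mouse in each group; bars are means and whiskers SD. Groups overlap in every panel, *Chpt1* and *Chdh* average lower in HGFAC-KO mice on both diets, and *Bhmt* spreads from 1112 to 3328 CPM outside the chow controls.

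Taking the 8 fitted members other than *Chka*, none passed with diet in controls, where 10.5% of all genes passed (edgeR). Of the 8, 3 had an unadjusted p under 0.05, against 25.4% of all genes, and DESeq2 called *Pcyt1a* and limma voom none. In HGFAC-KO mice none passed either, against 5.89% of all genes (edgeR). There 3 had an unadjusted p under 0.05, against 22.4% of all genes, and DESeq2 and limma voom called 0. No member of the 8 had diet groups that did not overlap, against 3.44% of all genes in controls and 2.96% in HGFAC-KO mice. For the interaction, 0 of the 8 passed and 0 had an unadjusted p under 0.05, against 0.0% and 3.63% of all genes, and DESeq2 and limma voom called 0 genes in all. *Chkb* was also fitted for the interaction, with a value of -0.13 (SE 0.514, adjusted p = 0.99, edgeR). Diet values were negative for 6 of 8 in controls and 7 of 8 in HGFAC-KO mice, with medians of -0.10 and -0.14. Over all genes tested the medians were 0.0036 and 0.0037, and 51.1% and 50.8% of values were positive. Of the 8, 7 had the same sign in both genotypes. The share of all genes with the same sign in both was not computed, so nothing is read from this count. The genotype values of the 8 had the same sign on both diets for 4 members, *Chpt1*, *Chdh*, *Etnk2* and *Pcyt1a*, all negative. The share of all genes with the same sign on both diets was not computed either. The HF/HS comparison is also the one that chose *Chka*, so nothing is read from this count. On chow *Pcyt1a* changed sign without HGFAC-KO replicate 1 (0.006), and *Etnk2* did so without control replicate 4 (0.027) or HGFAC-KO replicate 5 (0.01).

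**Figure D3:**
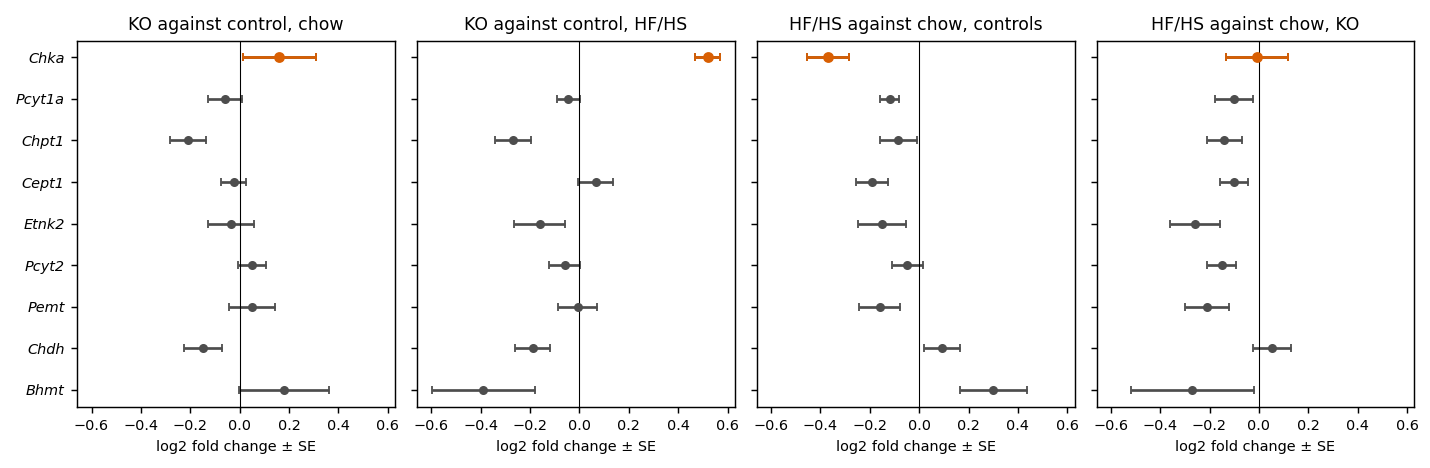
Log2 fold change (x axis) with its SE (whiskers) for the 9 fitted members (y axis) in the 4 comparisons of 2 groups, *Chka* in orange. *Chka* stands at 0.52 between genotypes on HF/HS and at -0.37 with diet in controls, while the values of most other members lie within 0.3 of 0.

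The marker lists of liver cells were detected in every group, and some differed in level between genotypes. The summed level of the 6 hepatocyte markers, most of it *Alb*, was 73460 to 90980 CPM in HF/HS controls and 84480 to 112000 CPM in HF/HS HGFAC-KO mice, and 73790 to 87830 against 85530 to 97800 CPM on chow. The 8 pericentral markers summed to 8970 to 11630 CPM in HF/HS controls and 5871 to 9726 CPM in HF/HS HGFAC-KO mice, and core clock genes to 411.2 to 562.9 and 301.2 to 540.4 CPM. On chow the pericentral sums were 6680 to 10130 CPM in controls and 5038 to 9331 CPM in HGFAC-KO mice, with clock sums of 307.2 to 542.4 and 291.7 to 543.8 CPM. The 6 cholangiocyte markers summed to 35.4 to 70.4 CPM in chow controls and 48.4 to 86.6 CPM in chow HGFAC-KO mice, and to 35.9 to 61.2 and 49.2 to 69.0 CPM on HF/HS. Within groups, over the 27 mice, the correlation of a list's summed level with *Chka* ran from -0.32 for pericentral markers to 0.41 for stellate cell markers, as a description over libraries that share their normalization. No list was at 0 in any group, and the part of these shifts in the values of *Chka*, *Chpt1* and *Chdh* was not tested. In whole liver, fewer cells of a type and less RNA per cell cannot be told apart.

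Beyond the members, 90 symbols of 6 textbook lists around the pathway were read, of which 88 were in the table. By genotype, 0 of 83 tested passed on chow and 0 of 81 on HF/HS (edgeR), and DESeq2 called 0 and 1. An unadjusted p under 0.05 was found for 6 of 83 on chow, against 5.98% of all genes, and for 19 of 81 on HF/HS, against 9.64% of all genes. The HF/HS counts come from the contrast that chose *Chka* and are given as description. With diet in controls, 12 of 81 passed (14.8%, against 10.5% of all genes), 4 higher and 8 lower on HF/HS, where 4.93% and 5.6% of all genes were called higher and lower. In HGFAC-KO mice 6 of 82 passed (7.32%, against 5.89% of all genes), 3 higher and 3 lower, against 3.17% and 2.73%. This count of 6 ran from 4 to 10 when each mouse was left out (10 without HGFAC-KO HF/HS replicate 5), and DESeq2 gave 10. Marker sums also differed in level between diets. From chow to HF/HS in HGFAC-KO mice, the median sum of Kupffer cell and leukocyte markers went from 119.6 (102.2 to 151.8) to 183.9 CPM (134.5 to 229.3), of sinusoidal endothelial markers from 179.6 (139.4 to 216.4) to 237.4 CPM (181.2 to 272.6), and of periportal markers from 6590 (5720 to 7984) to 5169 CPM (4816 to 6236). In controls the medians were 150.9 and 172.6, 205.8 and 259.6, and 6663 and 5959 CPM, and the part of these shifts in the diet values was not tested. The median log2 fold change over all list genes was -0.01 in each, near that of all genes.

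Diacylglycerol and phosphatidate supply feeds the last step of both routes. In this list 4 of 14 genes passed with diet in controls (28.6%, against 10.5% of all genes) and 1 of 14 in HGFAC-KO mice (7.14%, against 5.89%). *Gpat3*, a glycerol-3-phosphate acyltransferase gene, fell in both genotypes, from 10.4 ± 1.57 to 4.15 ± 0.41 CPM in controls (SD, n = 7 each; log2 fold change -1.32, SE 0.099, adjusted p = 2.94e-07, edgeR) and from 7.87 ± 1.38 (n = 6) to 3.95 ± 0.67 CPM (n = 7) in HGFAC-KO mice (-1.0, SE 0.135, adjusted p = 5.57e-04, edgeR). *Plpp3*, a lipid phosphate phosphatase gene, rose in controls from 125.1 ± 12.7 to 166.6 ± 19.6 CPM (a log2 fold change of 0.41 at adjusted p = 0.00246, edgeR). *Lpin1*, encoding the phosphatidate phosphatase lipin 1, rose in controls from 17.8 ± 5.11 to 35.7 ± 12.0 CPM (a log2 fold change of 1.0 at adjusted p = 0.0105, edgeR). In HGFAC-KO mice the values were 0.17 for *Plpp3* and 0.44 for *Lpin1* (adjusted p = 0.518 and 0.211, edgeR).

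Among genes of phosphatidylcholine remodelling and breakdown, 2 of 24 passed in each genotype (8.33%, against 10.5% of all genes in controls and 5.89% in HGFAC-KO mice). *Pnpla7*, a lysophospholipase gene, rose in both, from 125.6 ± 7.48 to 182.4 ± 14.9 CPM in controls, and in HGFAC-KO mice from 125.0 ± 7.95 to 159.9 ± 19.3 CPM (log2 fold changes 0.54 and 0.35, adjusted p = 2.60e-05 and 0.0115, edgeR). No chow mouse reached the level of any HF/HS mouse of its genotype. Diet groups did not overlap for 3.44% of all genes in controls and 2.96% in HGFAC-KO mice. Among the list genes this also held for *Gpat3* and *Aldh7a1* in both genotypes, and for *Cth*, *Plpp3* and *Pnpla6* in controls. *Pnpla6*, which encodes neuropathy target esterase, fell in controls from 46.7 ± 2.43 to 39.4 ± 1.23 CPM (a log2 fold change of -0.25 at adjusted p = 0.00108, edgeR), and its value in HGFAC-KO mice was -0.07 (adjusted p = 0.539, edgeR). *Lpcat2*, a lysophosphatidylcholine acyltransferase gene, passed in HGFAC-KO mice at a low level, 1.26 ± 0.19 to 1.78 ± 0.25 CPM (a log2 fold change of 0.49 at adjusted p = 0.0487, edgeR), and missed the threshold under 16 of 20 alternatives (adjusted p 0.0169 to 0.115).

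In the betaine, methionine and folate list, 5 of 18 passed with diet in controls (27.8%, against 10.5% of all genes) and 2 of 18 in HGFAC-KO mice (11.1%, against 5.89%). *Cth*, whose product forms cysteine from cystathionine, fell in controls from 506.6 ± 98.8 to 301.8 ± 51.7 CPM (a log2 fold change of -0.75 at adjusted p = 0.00119, edgeR), with a value of -0.33 in HGFAC-KO mice (adjusted p = 0.413, edgeR). *Aldh7a1*, a betaine aldehyde dehydrogenase gene, fell in both genotypes, from 500.3 ± 26.3 to 428.2 ± 18.1 CPM in controls, and in HGFAC-KO mice from 481.5 ± 31.3 to 385.1 ± 26.0 CPM (log2 fold changes -0.23 and -0.32, adjusted p = 0.00466 and 0.00524, edgeR). *Ahcy*, the S-adenosylhomocysteine hydrolase gene, fell in HGFAC-KO mice (log2 fold change -0.29, adjusted p = 0.0453, edgeR) and had a value of -0.18 in controls (adjusted p = 0.0923, edgeR). Its call missed the threshold under 10 of 20 alternatives (adjusted p 0.00786 to 0.106).

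In phosphatidylcholine transfer, export and sphingomyelin synthesis, *Sgms2*, a sphingomyelin synthase gene that consumes phosphatidylcholine, rose in HGFAC-KO mice from 33.5 ± 4.84 to 47.1 ± 6.77 CPM (a log2 fold change of 0.49 at adjusted p = 0.0133, edgeR). Its value in controls was 0.40 (adjusted p = 0.0543, edgeR). No transporter of choline or betaine passed in either genotype, with 10 tested in controls and 11 in HGFAC-KO mice (edgeR). Of these, 5 of 10 and 3 of 11 had an unadjusted p under 0.05, against 25.4% and 22.4% of all genes. Genes past the threshold in both genotypes were *Gpat3*, *Pnpla7* and *Aldh7a1*, which are 3 of the 12 in controls and 3 of the 6 in HGFAC-KO mice, all with the same sign. A call in one genotype and not in the other does not show a difference between them, and 0 of 83 list genes passed the interaction test (edgeR), with 3 at an unadjusted p under 0.05, against 3.63% of all genes.

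**Figure D4:**
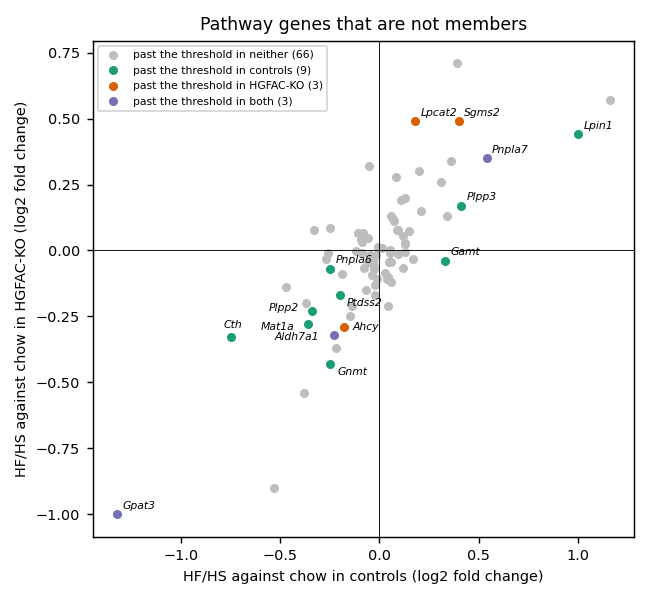
Log2 fold change of HF/HS against chow in controls (x axis) and in HGFAC-KO mice (y axis) for the 81 list genes tested in both, colored by the genotype in which they passed the adjusted threshold of 0.05. *Gpat3* is lowest in both, at -1.32 and -1.0, and the genes that passed in both genotypes lie in quadrants of equal sign.

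Within groups, the members varied largely apart from *Chka*. After the mean of each group was taken off, the correlation of log2 CPM with *Chka* over the 27 mice ran from -0.43 for *Pcyt1a* to 0.32 for *Pcyt2*, and without the 2 mice farthest from their group mean of *Chka* (HGFAC-KO chow replicate 1 and control chow replicate 6) it ran from -0.11 for *Etnk2* to 0.16 for *Chkb*. Among the members, *Pcyt2* and *Pemt* had r = 0.68, and *Cept1* and *Etnk2* had r = -0.71. All these points share libraries and their normalization, and they are given as description.

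The genes most like *Chka* by the same measure among 13931 others were *Rrad* (r = 0.70), *Hey1* (0.69), *Ankrd29* (0.69), *Fkbp3* (0.68) and *Dpysl2* (0.66), and the most unlike were *Cdnf* (-0.74), *C1qtnf3* (-0.72) and *Sprtn* (-0.68). Most of them were rare transcripts, with *Rrad*, *Ankrd29*, *Cdnf* and *C1qtnf3* under 0.5 CPM on average in every group. Without the same 2 mice the positive values ran from 0.46 to 0.61 and the negative ones from -0.50 to -0.39. Within the 14 HF/HS mice they ran from 0.09 to 0.53 and from -0.22 to 0.03.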

How the data were processed

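Poly(A) RNA of 27 livers was made into stranded libraries, sequenced in pairs and aligned by the authors to GRCm38 (mm10) with HISAT2. The authors deposited 1 table of raw counts per gene made with featureCounts 1.6.3, with 27179 rows. The annotation and strand setting of the counting are not given in the sources used here. The 3886 rows with no gene name (4.13% to 12.1% of a library's counts) were left out of totals and tests, and 89 symbols on several rows were summed. Counts in named genes ran from 34274697 to 54931037 per library with a median of 43916389, so counting error was small for all members except *Chkb*.

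Genotype was compared within each diet and diet within each genotype, 2 groups at a time, and the interaction over all 27 mice. The test was edgeR 4.0.16 (TMM, filterByExpr with a minimum count of 10 and total of 15, robust quasi-likelihood fit), with Benjamini-Hochberg adjustment over all genes tested and a threshold of 0.05. The scripts were tested on simulated data. Levels are CPM after TMM over the 27 mice. Single members were compared by two-sided exact permutation tests on log2 CPM with a prior count of 2 (SciPy 1.17.1), which are not adjusted over the members. The members and lists were chosen with earlier results of these data known. All members are named. Of the lists, up to 3 genes per direction and comparison with the smallest p are named, and of likeness to *Chka* the 5 highest and 3 lowest correlations. Alternatives were DESeq2 1.42.0, limma voom 3.58.1, other filters and scalings, a fit of all mice, a replicate block and leaving out each mouse. Likeness within each diet and without the 2 mice farthest from their group mean, and the attention to HGFAC-KO chow replicate 1 were chosen after seeing the data. Nothing in the labels says that replicate numbers pair mice, and p-values measure the spread between these livers. In no comparison did every pair of same-numbered mice deviate together with a correlation over 0.1 (1 of 6, 3 of 7, 0 of 7 and 4 of 6 pairs did).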

Additional observations from a re-analysis of the deposited data

Results flagged for a closer look

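Over the 10 members and 4 groups, 40 groups of mice were examined for a single mouse set far from the rest, and chance flags about 1 in 20 groups. A mouse stood apart in 2 of them. *Pcyt1a* in HGFAC-KO chow replicate 1 was at 75.03 CPM, below the other HGFAC-KO mice on chow at 97.6 to 111.0 CPM, with a gap of 0.628 of the group's range. The same liver had the highest *Chka* (118.2 CPM) and the lowest *Bhmt* (1112 CPM) of its group. It also had the lowest summed pericentral markers (5038 CPM, group median 8241) and core clock genes (291.7 CPM, group median 337.6) and the highest summed hepatocyte markers (97800 CPM, group median 90620), and the part of these in its member levels was not tested. *Cept1* in control chow replicate 4 was at 56.01 CPM, with a gap of 0.572 of the group's range.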

How the results depend on the processing

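The log2 fold change of *Chka* between genotypes on HF/HS was 0.49 to 0.54 under every alternative run, but in a fit of all 27 mice 0 members passed there. These runs reuse the mice by which *Chka* was picked, so the narrow range is a description and not support. The counts of members given here for diet and for the interaction leave out *Chka*. It was fitted there, but its tests share the mice by which it was picked and are not given. With diet in controls, 1 other member passed with DESeq2 and 1 with upper-quartile normalization (*Pcyt1a* in both) and 1 in the fit of all 27 mice (*Cept1*). Leaving out each mouse gave 0 to 1 member other than *Chka*, with *Pcyt1a* past the threshold without control HF/HS replicate 1 and *Cept1* without control HF/HS replicate 5. DESeq2 called 1 other pathway gene by genotype on HF/HS (*Slc22a3*) and 10 with diet in HGFAC-KO mice, where leaving out each mouse gave 4 to 10 (10 without HGFAC-KO HF/HS replicate 5). In the permutation tests of single members, the count under 0.05 by genotype on chow was 1 of 9. It rose to 2 without TMM (*Chpt1* and *Chdh*), and ran from 0 (without control replicate 5 or 7) to 2 (without HGFAC-KO replicate 2) when each mouse was left out. With diet the count ran from 2 to 3 of 8 in controls and from 1 to 3 of 8 in HGFAC-KO mice. In HGFAC-KO mice *Etnk2* was lost without chow replicate 2, 3 or 4 or HF/HS replicate 6. No share over all genes was computed for these tests, and nothing is read from the counts. The log2 ratio of *Chka* to *Chkb* on chow differed by -0.347 to 0.079 when each mouse was left out, 0.079 without control replicate 6. Genotype values on chow that changed sign with 1 mouse left out ran from -0.094 to 0.01 for *Pcyt1a* (0.006), -0.05 to 0.001 for *Cept1*, -0.02 to 0.11 for *Pemt* (-0.022) and -0.079 to 0.03 for *Etnk2* (0.027 and 0.01). Interaction values did so from -0.28 to 0.04 for *Chkb* (0.043 and 0.026, and 0.002 with limma voom), -0.049 to 0.055 for *Pcyt1a* (-0.049 and -0.008), -0.11 to 0.02 for *Pemt* (0.018) and -0.083 to 0.02 for *Chdh* (0.015). Likeness to *Chka* within the HF/HS mice turned to 0.03 for *C1qtnf3* and 0.01 for *Sprtn*. Without the 2 mice farthest from the median *Chka* level of all mice (HGFAC-KO chow replicate 1 and control HF/HS replicate 6) the 5 highest likeness values were 0.49 to 0.61. The causes were not tested.

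Over all genes DESeq2 called 13 against 1 by genotype on chow, with 11578 adjusted p-values undefined, 55 against 2 on HF/HS and 1401 against 802 with diet in HGFAC-KO mice. Same-numbered mice correlated over 0.1 in their deviations in 1 of 6, 3 of 7, 0 of 7 and 4 of 6 pairs. The cut of 0.1 was not set by a test, so these counts do not settle whether replicate numbers pair mice. With a replicate block, 774 genes passed with diet in controls, against 1424, and 602 in HGFAC-KO mice, against 802. Under the replicate block 1 member, *Chka*, passed by genotype on HF/HS, 0 members passed by genotype on chow, and 0 members other than *Chka* passed by diet or in the interaction. Depth limits only *Chkb* among the members.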
